A study of Mus musculus with 6 samples.

Results

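The mitosis genes described here are 34 genes for the machinery that enters, drives and completes cell division, out of 54100 rows of the count table. They were chosen by gene symbol, as kinases, cyclins, kinetochore, spindle and cytokinesis genes, and measured values were not part of the rule. The list was drawn up with earlier results of these data known. Each symbol gave 1 gene, and all 34 had at least 1 count. By role they were 8 genes of mitotic entry, 2 of chromosome structure, 9 of the kinetochore and its checkpoint, 2 of the chromosomal passenger complex, 5 of spindle assembly, 6 of the central spindle and cytokinesis, and 2 partners of the anaphase-promoting complex.

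Fibro-adipogenic progenitors (FAPs) are mesenchymal progenitor cells of skeletal muscle. They were sorted as Pdgfra+ cells from the plantaris, a muscle of the calf, of C57BL/6 mice. A group of 3 libraries came from sham muscle and a group of 3 from overloaded muscle, with 1000 cells sorted into each tube, and no genotype other than the strain is labelled. The sources used here do not give the age of the mice, nor how or how long the muscle was loaded. That replicates were separate animals is not labelled, so every p below rests on the spread between these 6 libraries, part of which may be technical. The comparison asks how transcripts of FAPs differ when the muscle carries more load.

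Mitosis is started by cyclin-dependent kinase 1 bound to B-type cyclins, after which chromosomes condense, kinetochores attach to spindle microtubules, and a checkpoint holds anaphase until attachment is complete. The anaphase-promoting complex then marks cyclins for destruction, and the central spindle and a contractile ring divide the cell. Transcripts of these genes are low in resting cells. They accumulate in G2 and M phase through promoter elements bound by the MuvB complex with B-MYB and FOXM1 (the cell cycle genes homology region, CHR) and by NF-Y (the CCAAT box). FAPs of uninjured muscle are known as largely quiescent cells.

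A promoter window was present in the RefSeq table (mouse build GRCm38.p6) for 29 of the 34 genes. Ccna2, Pbk, Aurkb, Tpx2 and Kif20a had no entry. The windows of 6 genes are shown because these genes rose with overload and had the most counts among the risen genes that have a window. Each runs 5′ to 3′ on the gene's strand, from 250 bases before the annotated start to 25 bases after it. Capitals mark CHR letters, searched as TTTGAA or else as TTCGAA. They also mark the box spelled CCAAT, and E2F letters, searched as TTTCGCGC or else as TTTGGCGC. All were searched on both strands, and in the 29 windows the sole overlap was between 2 CCAAT boxes of Ube2c on opposite strands. The windows are at chr11:99024165-99024439 on the minus strand for Top2a, chr10:69352888-69353162 on the minus strand for Cdk1 and chr11:117848987-117849261 on the plus strand for Birc5. Those of Mki67, Cenpa and Ccnb2 are at chr7:135716355-135716629 on the minus strand, chr5:30666636-30666910 on the plus strand and chr9:70421530-70421804 on the minus strand.
Top2a: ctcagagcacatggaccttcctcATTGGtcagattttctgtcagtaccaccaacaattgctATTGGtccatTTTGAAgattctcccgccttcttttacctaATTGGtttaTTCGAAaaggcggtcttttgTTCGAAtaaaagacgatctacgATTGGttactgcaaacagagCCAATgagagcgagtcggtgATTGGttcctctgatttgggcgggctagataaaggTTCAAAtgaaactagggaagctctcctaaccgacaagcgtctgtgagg
Cdk1: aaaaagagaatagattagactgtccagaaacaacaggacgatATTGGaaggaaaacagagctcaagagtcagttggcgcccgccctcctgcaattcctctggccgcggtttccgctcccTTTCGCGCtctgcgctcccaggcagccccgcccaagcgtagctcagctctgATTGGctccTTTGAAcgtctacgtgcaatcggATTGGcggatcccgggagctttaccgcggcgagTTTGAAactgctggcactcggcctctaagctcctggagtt
Birc5: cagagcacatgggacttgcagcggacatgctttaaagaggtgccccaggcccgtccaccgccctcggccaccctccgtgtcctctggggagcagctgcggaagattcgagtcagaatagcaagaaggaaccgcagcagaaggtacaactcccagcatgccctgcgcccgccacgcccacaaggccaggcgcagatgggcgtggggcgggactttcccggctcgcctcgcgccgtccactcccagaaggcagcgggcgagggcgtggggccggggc
Mki67: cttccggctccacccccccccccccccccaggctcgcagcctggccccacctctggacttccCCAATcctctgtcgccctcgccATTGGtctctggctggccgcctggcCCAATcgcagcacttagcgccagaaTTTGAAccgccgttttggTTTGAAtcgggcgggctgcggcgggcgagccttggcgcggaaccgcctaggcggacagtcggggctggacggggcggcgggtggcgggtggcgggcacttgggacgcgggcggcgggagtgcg
Cenpa: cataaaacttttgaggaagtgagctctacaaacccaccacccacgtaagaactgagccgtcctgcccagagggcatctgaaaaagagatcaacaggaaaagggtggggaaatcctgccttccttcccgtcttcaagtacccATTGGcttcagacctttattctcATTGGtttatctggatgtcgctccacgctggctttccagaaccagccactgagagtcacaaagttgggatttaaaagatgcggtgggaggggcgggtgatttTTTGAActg
Ccnb2: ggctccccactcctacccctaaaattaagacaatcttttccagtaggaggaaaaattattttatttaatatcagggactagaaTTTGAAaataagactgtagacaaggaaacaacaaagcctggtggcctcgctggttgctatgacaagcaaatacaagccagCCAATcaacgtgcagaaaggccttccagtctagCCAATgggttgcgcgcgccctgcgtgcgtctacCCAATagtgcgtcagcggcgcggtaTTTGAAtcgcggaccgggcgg

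Counting the start as base 1, with no base 0, the Cdk1 window held CHR letters at -71 to -66 and at -15 to -10, CCAAT boxes read on the opposite strand at -208, -80 and -48, and E2F letters at -131 to -124. The Top2a window held 6 CCAAT boxes and 4 CHR matches, the nearest to the start at -23 to -18. The Ccnb2 window had 3 CCAAT boxes that began at -87, -54 and -21, and a CHR at 5 to 10. The Birc5 window held none of the 3 motifs.

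Over the full 300-base windows, which reach 50 bases past the start, CHR letters were in 23 of the 29 (79.3%), against 5254 of 27025 promoters in the table (19.4%). CCAAT boxes were in 23 of 29 (79.3%) against 37.9% of all promoters. At least 2 CCAAT boxes were in 16 (55.2%) against 12.2%, and a CHR together with at least 2 CCAAT boxes was in 14 (48.3%) against 2.43%. E2F letters were in 1 window (3.45%), that of Cdk1, against 0.833% of all. Windows with no match were those of Birc5, Nuf2 and Nusap1, 10.3% against 13505 of the 27025 promoters. CHR matches were in 10 of 13 windows of the mitosis genes called higher without a filter on low counts, and in 13 of the 16 other windows. These matches describe letters in the windows, and binding was not measured.

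**Figure D1:**
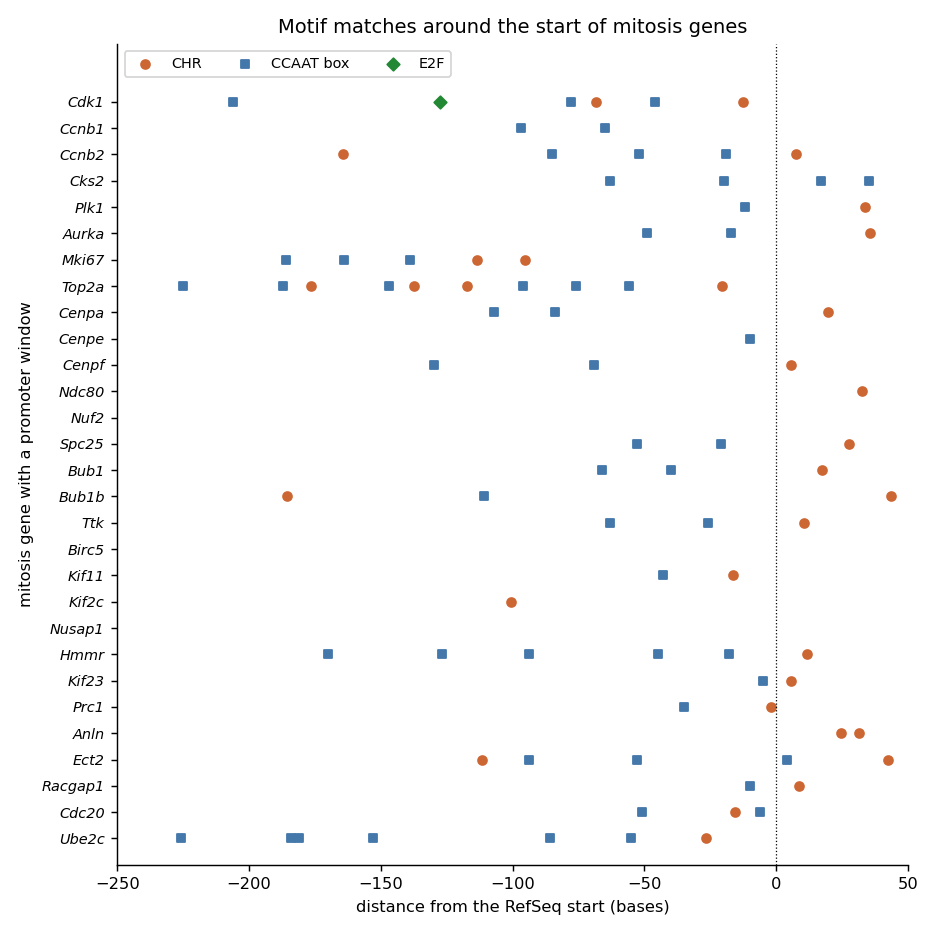
Matches to the CHR, CCAAT box and E2F letters in the 29 promoter windows of mitosis genes, plotted by distance from the RefSeq start in bases, with 1 row per gene. CHR matches lie in 23 windows and CCAAT boxes in 23, and the rows of Nuf2, Birc5 and Nusap1 are empty.

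As a group, mitosis transcripts were scarce in sham FAPs and more abundant in overloaded FAPs. Summed over the 34 genes sham libraries 1 to 3 held 83, 58 and 61 counts, against 476, 416 and 886 for overloaded libraries 1 to 3. Library totals were 500402 to 754456 counts in sham and 850857 to 1124210 in overloaded libraries. In CPM (counts scaled to library depth, here the counts of the tested genes times a factor from the trimmed mean of M-values), the sums were 119, 120 and 82.1 in sham and 458, 522 and 1025 in overloaded libraries. Means were 107 ± 21.7 and 668 ± 311 CPM (SD, n = 3 and 3), a ratio of 6.24. The lowest overloaded library was above the highest sham library, and overloaded library 3 was far above the other two. Without overloaded library 3 the log2 ratio of the sums was 2.19, against 2.64 with it. In a bulk library, more dividing cells and more of these transcripts per cell cannot be told apart.

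No single gene carried the sum. Cdk1 and Top2a together held 27.7% of the members' counts in overloaded libraries and 5.94% in sham, and without Cdk1, Top2a and Mki67 the log2 ratio was 2.28. A value of 0 was found in 37 of the 102 combinations of gene and library in sham, and in 3 of 102 in overloaded FAPs. Sham libraries had fewer counts in all, which by itself adds zeros there. The highest count of any mitosis gene in any sham library was 12, for Cenpf. The 23 genes with too few counts for the test gave sums of 53.7 ± 13.0 CPM for sham against 201 ± 72.1 CPM for overloaded FAPs (SD, n = 3 and 3), again with no overlap.

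**Figure D2:**
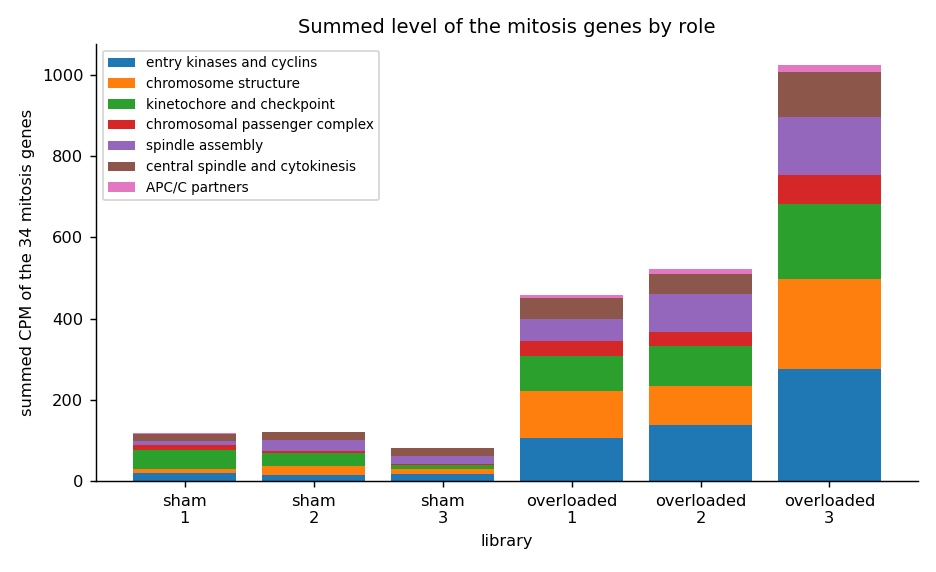
Stacked bars give the summed CPM of the 34 mitosis genes in each of the 6 libraries, split into the 7 roles. The sham bars reach 82.1 to 120 CPM and the overloaded bars 458 to 1025 CPM, with the highest bar in overloaded library 3.

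In the count test, 11 of the 34 genes had enough reads. The filter let 10 through on the overloaded libraries alone, and Cenpf on sham library 1 with overloaded libraries 1 and 3. The number of these 11 genes is thus not a share of the family. Of them, 10 were called higher under overload (Benjamini-Hochberg adjusted p under 0.05, edgeR's quasi-likelihood test), where 15% of the 7207 genes tested were called higher and 14.3% lower. The 10 were Cdk1, Ccnb2, Mki67, Top2a, Cenpa, Cenpe, Birc5, Tpx2, Anln and Racgap1. Cenpf was tested and not called. No mitosis gene was called lower by edgeR, DESeq2 or limma-voom, and 0 were lower at an unadjusted p under 0.05 by any of these. Since the 11 entered mostly through overloaded counts, a lower call among them had little room, and its absence adds nothing.

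With every gene entered, whatever its counts, 16 of the 34 were called higher, 0 lower and 18 in neither direction, where 3.8% of 28251 genes were called higher. The added genes were Ccna2, Ccnb1, Plk1, Aurka, Pbk and Spc25. The fitted log2 fold change was positive for 33 of the 34, with Kif20a as the exception. The median was 2.52, or 2.26 with the 5 genes that had no sham count set at folds against 3 sham counts. Over all 28251 genes the median was -0.33 and 40.2% were positive. Among genes with at least 15 counts in all, 18 of 29 mitosis genes were called higher, where 10.7% of 11393 genes were. Of these 29, only Ccnb2 (19 counts) and Cenpf (18 counts) reached 15 in sham alone. The others passed with the help of overloaded counts, so this is not a matched comparison.

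Every overloaded library lay above every sham library for 25 of the 34 genes, which held for 7.3% of all genes with a count. With at least 15 counts it held for 21 of 29, against 16.4%, though most of the 29 reached 15 only with their overloaded counts. In 0 of the 34 did every overloaded library lie below every sham library. The 9 genes with overlapping groups were Cenpf, Ndc80, Bub1, Ttk, Nusap1, Hmmr, Kif20a, Kif23 and Ect2. By role, overlap was seen in 4 of 9 kinetochore genes, 2 of 5 spindle genes and 3 of 6 cytokinesis genes, and in 0 of the 14 genes of the other 4 roles.

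**Figure D3:**
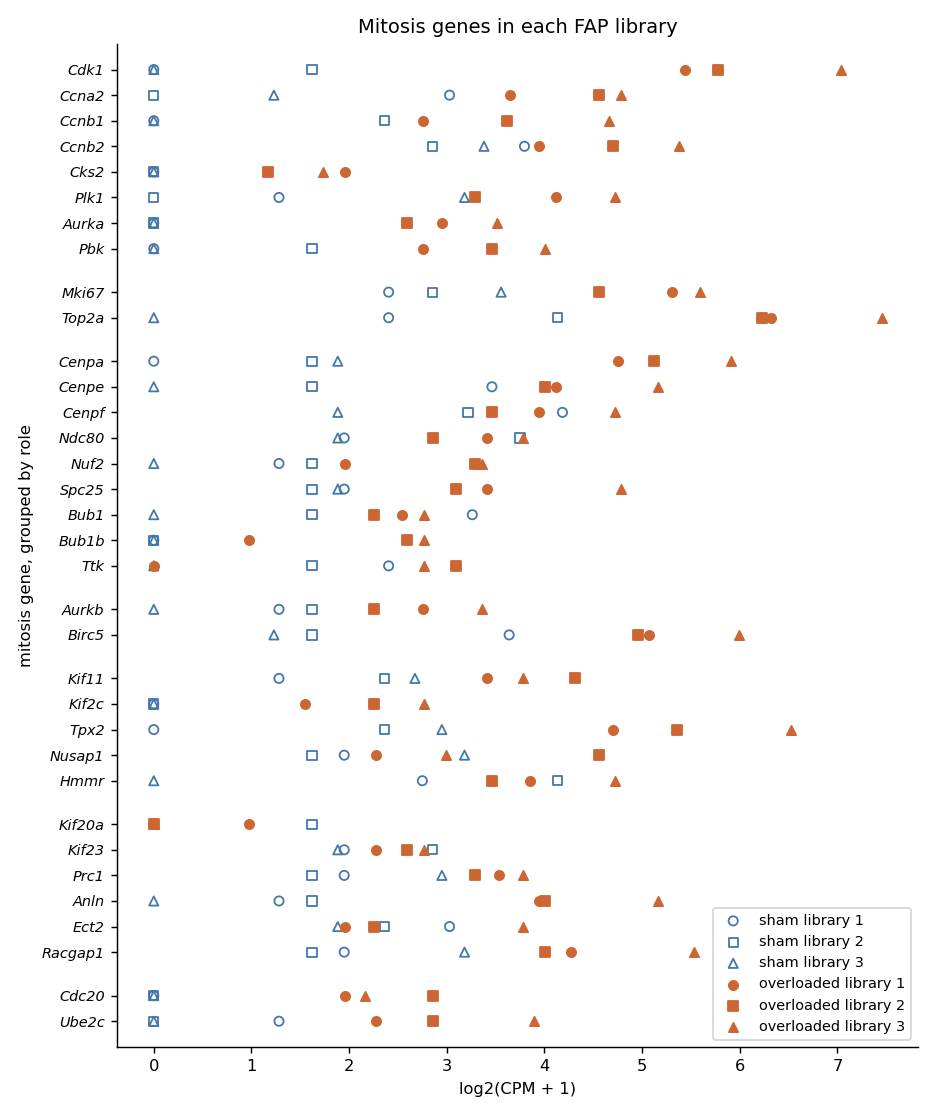
Each row is a mitosis gene, grouped by role, and each symbol is 1 library on a log2(CPM + 1) scale, open for sham and filled for overloaded. The filled symbols all lie right of the open ones for 25 of the 34 genes, and overloaded library 3 is the highest overloaded symbol for 28.

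Genes of mitotic entry stood apart in all 8 cases. Their summed sham levels were 21.5, 14.5 and 18.8 CPM, and the overloaded levels 106, 138 and 275 CPM, a ratio of 9.47. Cdk1, the kinase that starts mitosis (chromosome 10, 69335146 to 69352938), had 0, 1 and 0 sham counts against 44, 43 and 113 overloaded counts. Its transcripts were nearly absent from sham and were counted in every overloaded library. The ratio of pooled counts was 142, with an exact 95% counting interval of 25.3 to 5653, and the adjusted p was 1.06e-06 (edgeR's quasi-likelihood test).

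The cyclins that partner Cdk1 were higher as well. Ccnb2, a B-type cyclin (chromosome 9, 70407692 to 70421547), had 9, 3 and 7 sham counts against 15, 20 and 35 overloaded counts. It was the most evenly present of the entry genes in sham, and in CPM its groups did not overlap. With means of 9.51 ± 3.33 and 26.7 ± 13.1 CPM (SD, n = 3 and 3), it rose by a log2 change of 1.42 ± 0.48 (SE, adjusted p = 0.0246 by edgeR). That call was lost by DESeq2 and by limma-voom, with the share of background reads as a covariate, and without sham library 2, sham library 3 or overloaded library 3. Ccnb1, the other B-type cyclin, had 0, 2 and 0 against 6, 9 and 21 counts, a pooled ratio of 12.8 (counting interval 3.30 to 110). Ccna2, the cyclin of S phase and early mitosis, had 5, 0 and 1 against 12, 18 and 23 counts. Both were below the filter of the test, and both were called higher without it, at adjusted p = 0.00311 and 0.00137 (edgeR). Ccnb1 shares stretches near its 3′ end with 4 other gene models (Ccnb1-ps, Gm12856, Gm4870 and Gm8416), which makes its count uncertain.

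Among the kinases that act with Cdk1, Plk1, polo-like kinase of centrosomes and kinetochores, had 1, 0 and 6 sham counts against 17, 7 and 22 overloaded counts. Its highest sham and lowest overloaded libraries were close, at 8.07 and 8.78 CPM. Aurka, Aurora A of the spindle poles, had no sham count and 7, 4 and 9 overloaded counts. Against a floor of 3 counts over the sham group, Aurka was 4.75-fold higher, with its overloaded counts taken as exact. Pbk, a mitotic serine/threonine kinase, had 0, 1 and 0 against 6, 8 and 13 counts. These 3 kinases were below the filter of the test, and each was called higher without it (edgeR adjusted p = 0.0139, 0.0142 and 0.0119 in that order). Cks2, a small subunit that binds Cdk1, had no sham count and 3, 1 and 2 overloaded counts. In fold it was 1.42 against the same floor, again with overloaded counts taken as exact. Cks2 was not called without a filter (edgeR adjusted p = 0.418).

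Both genes of chromosome structure rose. Top2a, the topoisomerase that untangles sister DNA (chromosome 11, 98992943 to 99024189), had 3, 8 and 0 sham counts against 82, 59 and 151 overloaded counts. The sham libraries disagreed among themselves, yet the highest of them was well below the lowest overloaded one. Mean levels were 6.96 ± 8.61 and 109 ± 56.8 CPM (SD, n = 3 and 3), with a log2 change of 4.18 ± 0.71 (SE, adjusted p = 0.00161 by edgeR). The change was 5.61 without sham library 2 and 3.51 without sham library 3. A small gene model, Gm23451, overlaps its exons on the same strand and had 0 counts in all 6 libraries. Mki67, which encodes the Ki-67 protein that coats mitotic chromosomes and is a common marker of cycling cells (chromosome 7, 135689784 to 135716361), had 3, 3 and 8 against 40, 18 and 41 counts. It was present in each sham library, unlike Cdk1 and Top2a, and rose by 2.30 ± 0.47 on the log2 scale (SE, adjusted p = 0.000328 by edgeR). With background reads as a covariate the call for Mki67 was lost.

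The kinetochore genes were mixed. Their sham sums were 47.3, 33.2 and 10.8 CPM, and the overloaded sums 84.6, 97.8 and 185 CPM, a ratio of 4.03. Cenpa, the histone H3 variant that defines centromeres (chromosome 5, 30666777 to 30674830), had 0, 1 and 2 sham counts against 27, 27 and 51 overloaded counts. The gap between its groups was wide in every library, with a ratio of 24.9, a counting interval of 8.30 to 123 and an adjusted p of 2.46e-06 (edgeR's quasi-likelihood test). Cenpe, a kinesin that carries chromosomes to the spindle equator (chromosome 3, 135212537 to 135273611), had 7, 1 and 0 against 17, 12 and 30 counts. Most of its sham reads came from sham library 1. Its log2 fold change was 2.36 ± 0.67 (SE, adjusted p = 0.00854 by edgeR), and the call was lost without sham library 3 (1.73), without overloaded library 3 (1.91) and with background reads as a covariate (1.89). Without sham library 1 the change was 4.52.

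Cenpf, a large protein of the outer kinetochore (chromosome 1, 189640606 to 189688086), had 12, 4 and 2 sham counts against 15, 8 and 22 overloaded counts. Sham library 1 lay above overloaded libraries 1 and 2 in CPM, and the log2 change of 0.82 ± 0.56 (SE) was not called (adjusted p = 0.294 by edgeR). Without sham library 1 it was 1.73, again not called. Of the Ndc80 complex, which grips microtubules, Spc25 had 2, 1 and 2 against 10, 6 and 23 counts, and Nuf2 had 1, 1 and 0 against 3, 7 and 8. Both of these stood apart, while Ndc80 itself, with 2, 6 and 2 against 10, 5 and 11 counts, overlapped through sham library 2.

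The checkpoint kinases gave little at this depth. Bub1 had 6, 1 and 0 sham counts against 5, 3 and 5 overloaded counts, a pooled ratio of 1.32 (counting interval 0.490 to 3.91). Ttk, the kinase Mps1, had 3, 1 and 0 against 0, 6 and 5 counts. Neither showed a difference that these counts could resolve. Bub1b, the checkpoint protein BubR1, had 0 sham counts and 1, 4 and 5 overloaded counts, 2.37-fold against the floor.

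The chromosomal passenger complex corrects faulty attachments and then moves to the central spindle. Its subunit Birc5, survivin (chromosome 11, 117849251 to 117855743), had 8, 1 and 1 sham counts against 34, 24 and 54 overloaded counts. All overloaded libraries were above sham library 1, the highest of the sham group. Birc5 rose, with a log2 change of 2.97 ± 0.54 (SE, adjusted p = 0.000108 by edgeR). Sham library 1 held 8 of its 10 sham counts, and without that library the change was 4.58. The kinase of the complex, Aurkb, had 1, 1 and 0 against 6, 3 and 8 counts, with a ratio of 6.05 and a counting interval of 1.44 to 54.0.

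In spindle assembly, Tpx2, which activates Aurora A and nucleates microtubules (chromosome 2, 152847964 to 152895321), had 0, 2 and 5 sham counts against 26, 32 and 79 overloaded counts. Its groups were far apart, and the log2 fold change was 3.78 ± 0.68 (SE, adjusted p = 0.000538 by edgeR). It was 3.19 without sham library 1, 4.81 without sham library 3 and 3.12 without overloaded library 3. Kif11, the kinesin that pushes spindle poles apart, had 1, 2 and 4 against 10, 15 and 11 counts, and Kif2c, a kinesin that shortens microtubules, had none against 2, 3 and 5. Both of these stood apart, though neither was called without a filter (edgeR adjusted p = 0.0937 and 0.205).

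The other spindle genes overlapped. Nusap1, a microtubule-bundling protein, had 2, 1 and 6 sham counts against 4, 18 and 6 overloaded counts, with overloaded library 2 alone above all sham libraries in CPM. Hmmr, a microtubule-binding protein also known as a hyaluronan receptor, had 4, 8 and 0 against 14, 8 and 22 counts, with sham library 2 inside the overloaded range.

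Cytokinesis genes split evenly into those that stood apart and those that overlapped. Anln, the anillin scaffold of the contractile ring (chromosome 9, 22332012 to 22389188), had 1, 1 and 0 sham counts against 15, 12 and 30 overloaded counts. It was nearly absent from sham, with a ratio of 20.3, a counting interval of 5.37 to 172 and an adjusted p of 0.000166 (edgeR's quasi-likelihood test). Racgap1, a subunit of the centralspindlin complex (chromosome 15, 99620496 to 99651656), had 2, 1 and 6 against 19, 12 and 39 counts. It was present in each sham library and rose by 2.46 ± 0.58 on the log2 scale (SE, adjusted p = 0.00182 by edgeR), a call lost without overloaded library 3 (1.85) and with background reads as a covariate (1.36). Without sham library 3 the change was 3.30.

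The partner of Racgap1 in centralspindlin, the kinesin Kif23, had 2, 3 and 2 sham counts against 4, 4 and 5 overloaded counts, a pooled ratio of 1.32 (counting interval 0.490 to 3.91). Ect2, the exchange factor that centralspindlin recruits to switch on RhoA, had 5, 2 and 2 against 3, 3 and 11 counts, so that overloaded library 3 alone was above sham. Prc1, which bundles the central spindle, had 2, 1 and 5 against 11, 7 and 11 counts and stood apart. Kif20a, a kinesin of the central spindle, had 1 count in sham library 2 and 1 in overloaded library 1, and nothing about it was detectable at this depth.

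Partners of the anaphase-promoting complex were almost unseen in sham. Cdc20, the activator that the checkpoint holds back, had no sham count and 3, 5 and 3 overloaded counts, 2.61-fold against the floor. Ube2c, the ubiquitin-conjugating enzyme of the complex, had 1, 0 and 0 against 4, 5 and 12 counts, a pooled ratio of 14.95 (counting interval 2.41 to 618). Neither was called without a filter (edgeR adjusted p = 0.162 for Cdc20 and 0.0535 for Ube2c).

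**Figure D4:**
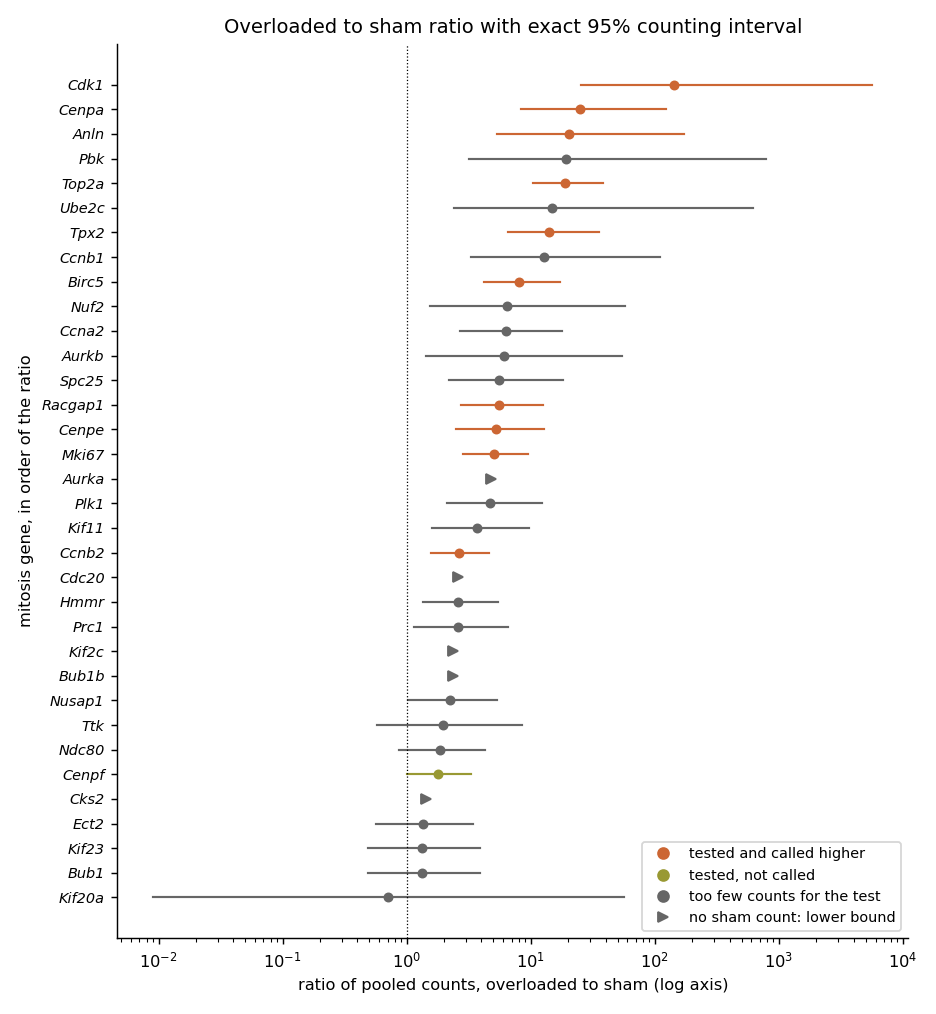
Ratio of pooled counts, overloaded to sham, for each of the 34 mitosis genes on a log axis, with exact 95% counting intervals as lines and lower bounds as arrowheads for the 5 genes with no sham count. Ratios run from 0.712 for Kif20a to 142 for Cdk1, and the intervals cover counting error only.

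Reads of neighbouring genes could enter some of these counts, since the strand setting is not given. Exons of 7 mitosis genes (Ccna2, Cdc20, Kif20a, Nusap1, Plk1, Prc1 and Ube2c) overlap a gene on the opposite strand. Of those neighbours, Elovl1, beside Cdc20, had 14, 17 and 17 sham counts against 64, 26 and 30 overloaded counts. Exosc9 beside Ccna2, Cdc23 beside Kif20a, Oip5 beside Nusap1 and Rccd1 beside Prc1 had at most 7 counts in any library. Tnnc2 beside Ube2c and Gm44985 beside Plk1 had 0 counts in all libraries.

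Overloaded libraries did not carry the same amount of mitosis transcripts. Overloaded library 3 was the highest of the overloaded group for 28 of the 34 genes (82.4%), among them all 10 called genes, while it was the highest for 34.6% of all genes tested and 50.6% of genes called higher. The sum of the 34 in this library was 2.09 times the mean of overloaded libraries 1 and 2. The median log2 ratio of the same comparison, on CPM + 1, was 0.84 for the mitosis genes, 0.16 for genes called higher and -0.00041 for all genes tested. The exceptions were Cks2, Ttk, Kif11, Nusap1, Kif20a and Cdc20. The excess was seen in every role, from 1.80 times for the partners of the anaphase-promoting complex to 2.26 times for entry genes.

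**Figure D5:**
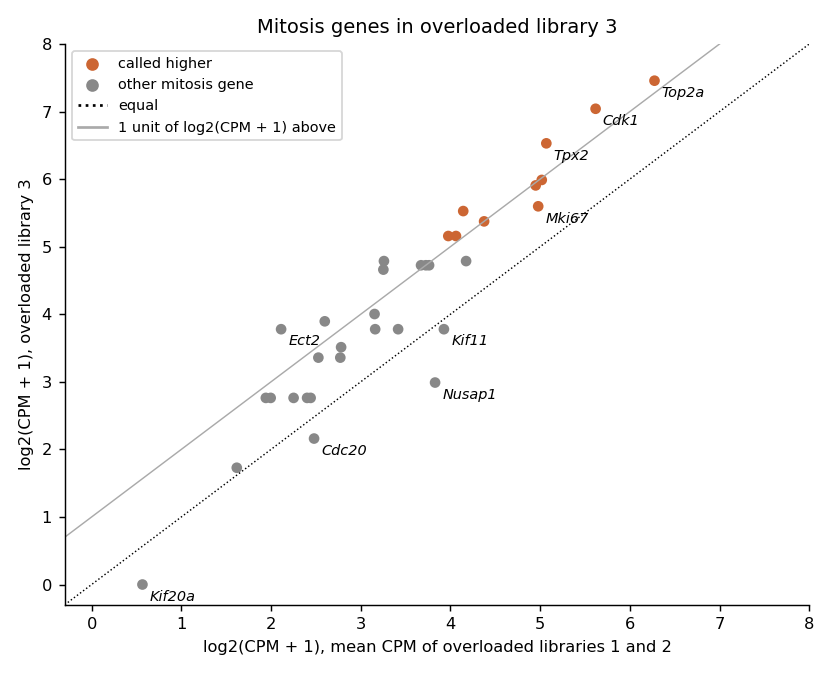
Level of each mitosis gene in overloaded library 3 against the mean of overloaded libraries 1 and 2, both as log2(CPM + 1), with the dotted line for equal levels and the grey line 1 unit above it. Most points lie above the dotted line, and Nusap1, Kif11, Cdc20 and Kif20a lie below it.

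The share of background reads also differed between libraries. Olfactory and vomeronasal receptor genes, which serve sensory neurons, were taken as its measure. Together these 1992 genes had 1445, 1819 and 781 CPM of the library total in sham and 308, 1092 and 232 in overloaded libraries. Per kilobase of exon, the mitosis genes had 2.66, 2.13 and 3.45 times the counts of those receptor genes in sham, and 45.9, 14.9 and 143 times in overloaded libraries. Both terms of this ratio differed between the groups. Mitosis genes had 0.458 to 0.671 CPM per kilobase in sham and 2.55 to 5.71 in overloaded libraries. Receptor genes had 0.133 to 0.316 in sham and 0.040 to 0.195 in overloaded libraries. With the share of background reads as a covariate, 6 mitosis genes (Cdk1, Top2a, Cenpa, Birc5, Tpx2 and Anln) were called higher. Ccnb2, Mki67, Cenpe and Racgap1 were not. The SE of Mki67 was 0.60 in this fit, against 0.47 without the covariate. The portion of all genes called in this fit is not given. A general loss of calls thus cannot be told apart from a loss particular to these genes.

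All 14 FAP markers on the list had counts. Their sum was 69230 to 89447 CPM in sham and 93688 to 107304 CPM in overloaded libraries, although 10 of the 14 had a mean no higher in overloaded libraries. Pdgfra, the receptor used for the sort, stood at 769, 780 and 1021 CPM in sham and at 607, 416 and 759 CPM in overloaded libraries. Every sham library was above every overloaded one, with a log2 change of -0.53 ± 0.21 (SE, adjusted p = 0.0624 by edgeR). With background reads as a covariate Pdgfra was called lower, at -1.12 (adjusted p = 0.00903 by edgeR). Markers of other cell types were summed in the same way. The 13 leukocyte markers summed to 15.8 to 27.0 CPM in sham and 3.85 to 20.1 in overloaded libraries, with Adgre1, Lyz2, C1qa, C1qb and S100a9 at 0 throughout. The 9 endothelial markers summed to 127 to 233 CPM in sham and 33.5 to 96.6 in overloaded libraries. Tek held 233 of their 329 sham counts and 74 of their 178 overloaded counts, and the other 8 summed to 106, 20.7 and 16.1 CPM in sham and to 37.5, 72.7 and 8.10 CPM in overloaded libraries. The 8 satellite cell markers summed to 25.8 to 41.5 and 9.25 to 28.8 CPM, with Myod1 at 0. The 8 pericyte and smooth muscle markers gave 143 to 195 and 108 to 163 CPM. The 7 myofibre markers gave 35.8 to 62.2 and 23.1 to 30.1 CPM. The 6 erythroid markers gave 7.16, 66.4 and 130.5 CPM in sham and 2.89, 2.51 and 27.8 CPM in overloaded libraries, so that overloaded library 3 was within the sham range. The 6 Schwann cell markers gave 5.73 to 27.0 CPM in sham and 1.16 to 6.73 CPM in overloaded libraries. In overloaded library 3 the sums of the leukocyte, endothelial, satellite, pericyte and Schwann lists were below their mean in overloaded libraries 1 and 2. The erythroid sum was 10.3 times that mean and the myofibre sum 1.13 times. The 5 tenocyte markers, at 91.4 CPM, were 1.98 times that mean, against 40.4 to 55.8 CPM in sham. The part of these cells in the mitosis counts was not tested.

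Other genes of the cell cycle were counted from lists kept apart from the 34. Of 35 DNA replication genes, 14 could be tested, 9 of these rose and 0 fell, and 5 were called higher with background reads as a covariate. Among all genes tested, 15% rose and 14.3% fell. Rrm2, Mcm2, Lig1 and Uhrf1 passed the filter on overloaded counts alone. The 9 are thus not a share of the list, and the absence of a lower call adds little. Rrm2, the small subunit of ribonucleotide reductase, had 2, 1 and 5 sham counts against 60, 50 and 113 overloaded counts (log2 fold change 4.29 ± 0.48 SE, edgeR adjusted p = 6.46e-08). Mcm2, of the replicative helicase, had 1, 0 and 0 against 35, 24 and 22 counts, and Pcna, the sliding clamp, did not pass (log2 fold change 0.36 ± 0.30 SE, edgeR adjusted p = 0.405). The replication list summed to 274 to 292 CPM in sham and 670, 719 and 1085 CPM in overloaded libraries. Overloaded library 3 was again the highest, at 1.56 times the mean of the other two.

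Of 51 further mitosis genes, 10 were tested and 4 rose, namely Tacc3, Cks1b, Zwint and Cit, where 15% of all genes tested rose. With background reads as a covariate, Cks1b was the sole call among the 10. Zwint was also lost without sham library 2, sham library 3 or overloaded library 3, and Cit by library size scaling, by DESeq2, after thinning, and without sham library 2, sham library 3, overloaded library 2 or overloaded library 3. Tacc3, which stabilises spindle microtubules, had 6, 4 and 2 against 47, 12 and 46 counts, and passed the filter on overloaded counts alone. Their sum differed by a ratio of 1.78, against 6.24 for the 34 genes, with no test of that difference. Of 20 condensin and cohesin genes, 15 were tested. The condensin subunits Smc2 and Smc4 rose (log2 fold change 2.17 ± 0.36 and 1.01 ± 0.28 SE), and the cohesin subunit Stag2 and the cohesin loader Nipbl fell (-0.72 ± 0.25 and -0.66 ± 0.22 SE). These 2 higher and 2 lower of 15 were near the shares among all genes tested, 15% and 14.3%. The median log2 fold change of the 15 was 0.0065. Of 16 genes of the anaphase-promoting complex, 12 were tested, and Cdc16 and Anapc4 rose, a share of those tested near the 15% called higher among all genes. With background reads as a covariate, 0 genes of the condensin, cohesin and anaphase-promoting complex lists were called in either direction. At an unadjusted p under 0.05 that edgeR fit had 2 higher (Smc2 and Cdc16) and 2 lower (Pds5a and Pds5b). Stag2, Nipbl and Anapc4 were also lost without a filter on low counts (edgeR adjusted p = 0.163, 0.154 and 0.0518), and each without sham library 2, sham library 3 or overloaded library 3. Stag2 was further lost without overloaded library 1 and by DESeq2, Nipbl without overloaded library 2, Anapc4 by DESeq2 and after thinning, and Smc4 after thinning.

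Among 23 genes for the transcription of the cell cycle, 13 were tested. Of these, 4 rose and 1 fell, where 15% of all genes tested rose and 14.3% fell. E2f1, an activator of S phase genes, had 3, 1 and 2 sham counts against 38, 18 and 19 overloaded counts, a log2 change of 3.07 ± 0.57 (SE, adjusted p = 0.000112 by edgeR). E2f3, E2f4 and the pocket protein gene Rbl1 also rose, and Nfya, a subunit of NF-Y, fell by 1.37 ± 0.45 on the log2 scale (SE, adjusted p = 0.0195 by edgeR), a call lost without a filter (adjusted p = 0.0886), with background reads as a covariate (0.252), and without sham library 2, sham library 3 or overloaded library 3 (0.0999, 0.0766 and 0.0912). E2f1 and Rbl1 passed the filter on overloaded counts alone. The regulators most tied to mitosis genes were too scarce to test. Foxm1 had 1, 2 and 1 against 8, 4 and 8 counts, and Mybl2, which encodes B-MYB, had 0, 3 and 0 against 0, 2 and 2.

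Among genes of G1 and of cell cycle arrest more fell than rose. Of 18 on this list, 13 were tested, 2 rose and 5 fell, where 15% of all genes tested rose and 14.3% fell. The 2 that rose were near the share among all genes. Cdkn1a, the inhibitor p21, had 1035, 699 and 1133 sham counts against 686, 560 and 548 overloaded counts, and fell by 1.16 ± 0.19 on the log2 scale (SE, adjusted p = 2.66e-05 by edgeR). Cdkn1c, the inhibitor p57, had 200, 115 and 182 against 42, 40 and 15 counts and fell by 2.83 ± 0.28 (SE, adjusted p = 6.72e-09 by edgeR). In CPM, every sham library was above every overloaded library for both of these inhibitors. Cdkn1b, the inhibitor p27, fell by 0.89 ± 0.27 (SE, adjusted p = 0.015 by edgeR), a call lost without sham library 1, overloaded library 1 or overloaded library 3 and with background reads as a covariate. Myc and Ccng2 were the others that fell. Cdk4 and Ccne1, which act in G1, rose, while Ccnd1, cyclin D1, with 20, 8 and 12 against 19, 12 and 16 counts, was not called (adjusted p = 0.706 by edgeR).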

How the data were processed

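Unnormalised read counts for 3 sham and 3 overloaded libraries were deposited by the authors as a single gene table. The submitters' processing notes name build GRCm38, featureCounts 2.0.1, HISAT2 2.2.1, Trim Galore 0.6.6 and DESeq2 1.28.1. The sources used here do not give the annotation release, strandedness, treatment of multimapping reads or any collapsing of molecular identifiers. Without such collapsing, reads may be copies of 1 molecule, and intervals and floors cover counting error only.

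Counts were tested here with edgeR 4.0.16 in R 4.3.3 (TMM scaling, filterByExpr with a minimum count of 10 and a total of 15, robust quasi-likelihood test, Benjamini-Hochberg adjustment over 7207 genes), after a check on simulated data. DESeq2 1.42.0 and voom of limma 3.58.1 were alternatives. CPM are relative to counts in tested genes. For genes with no sham count, folds are set against 3 counts over the group (1.56 CPM in sham). They take the overloaded counts as exact, so they are not lower limits of a 95% interval. Ratios of pooled counts have exact 95% binomial intervals. Gene positions and exon lengths are from GENCODE on GRCm38, and promoters from RefSeq. Pairs of libraries within a group differed by more than sampling noise (chi-square per degree of freedom 3.75 to 6.61).

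The mitosis genes, roles and other lists were chosen with earlier results of these data known. All 34 mitosis genes were named, with up to 4 called genes of each other list in order of adjusted p, and Foxm1, Mybl2, E2f1, Cdkn1a, Cdkn1b, Cdkn1c, Ccnd1 and Pcna. Pdgfra and the genes that overlap a mitosis gene were added after their values were seen, as were Ccne1, Myc, Tek, Pds5a and Pds5b.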

Additional observations from a re-analysis of the deposited data

How the results depend on the processing

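The count of mitosis genes called higher, 10 of 11 tested, depended mostly on how many entered. It was 16 of 34 with no filter on low counts and 18 of 29 with at least 15 counts over the 6 libraries. It was 2 of 2 at a minimum count of 30 and 6 of 6 after thinning to the smallest library, where fewer genes were tested. Genes that entered at a minimum of 30 or after thinning did so on overloaded counts, so these are not shares of the family. With background reads as a covariate the count was 6 of 11, and the cause was not tested. Shares among all genes are given above only for the main fit, for no filter and for at least 15 counts. DESeq2 and limma-voom each gave 9, and both other scalings gave 10. Leaving out sham library 1, 2 or 3 gave 11 of 16, 11 of 15 and 10 of 16, and leaving out overloaded library 1, 2 or 3 gave 11 of 13, 11 of 13 and 7 of 11. Without overloaded library 3, Ccnb2, Cenpe and Racgap1 were no longer called. None was called lower under any of these settings, where sham counts of at most 12 per library left little room for a lower call. With the replicate block the count was 10, and among other named genes Cit was no longer called and Pdgfra was called lower (adjusted p = 0.0539 and 0.045 by edgeR). Whether replicate numbers pair the libraries is not labelled. Deviations of same-numbered libraries had correlations of 0.00822, 0.0144 and 0.0149, and not every library correlated best with its own number. Values this small neither show nor exclude pairing. The log2 ratio of the summed CPM ran from 2.19 to 2.85 when 1 library was left out, and scaling by library size alone gave 2.61. Library size alone moved the median log2 fold change of all tested genes by -0.068. The fold change of Ccnd1 ran from -0.40 to 0.12 when 1 library was left out, positive without sham library 1. The settings for the other cell cycle lists were added after the data were seen. Over them, calls of replication genes ran from 2 to 17 higher with 0 lower, and those of further mitosis genes from 1 to 15 higher. With at most 12 counts per sham library, sham levels of mitosis genes are poorly resolved.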
